A study of Homo sapiens with 6 samples.

Results

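The annexins analysed were ANXA1, ANXA2, ANXA3, ANXA4, ANXA5, ANXA6, ANXA7 and ANXA11, 8 of the 27234 gene rows of the deposited count table. Their rows were taken by gene symbol, and the set was chosen with earlier results of these data known. RNA was measured in A673, an Ewing sarcoma cell line that carries the EWS-FLI1 fusion, a transcription factor with the DNA-binding part of the ETS factor FLI1. Cells received siRNA oligonucleotides from Thermo Fisher against FLI1 (siFLI1, 3 libraries) or control oligonucleotides (siControl, 3 libraries). Both groups were the same line, were grown with fetal bovine serum (10%) in DME and were harvested 48 h after transfection, and sequencing read polyadenylated RNA from its 3' end. The design holds 1 comparison, of FLI1 siRNA with control siRNA, in a series about the glucocorticoid receptor and ETS proteins.

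Annexins are soluble proteins that bind acidic phospholipids, phosphatidylserine among them, when calcium is present, through a conserved core of repeated domains. Their variable N-terminal tails bind partners, often calcium-binding proteins of the S100 family. They are known for membrane organisation, vesicle fusion and the sealing of membrane wounds, and ANXA1 is a classical glucocorticoid-induced protein that dampens inflammation.

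None of the annexins passed the test. At an adjusted p under 0.05, 0 of the 7 tested annexins were higher and 0 were lower in siFLI1 (edgeR's quasi-likelihood test with Benjamini-Hochberg adjustment over 9420 genes). Of all tested genes, 126 (1.34%) were called higher and 11 (0.117%) lower, 137 (1.45%) in all. At an unadjusted p under 0.05, ANXA1, ANXA4 and ANXA5 were higher (3 of 7, against 6.62% of all tested genes) and 0 annexins were lower (4.13% of all tested genes). The number of annexins under that edgeR p varied with the setting. It was 1 of 8 without siFLI1 replicate 1, 2 of 7 with upper quartile scaling and 4 of 8 with a filter of 5 CPM in 3 libraries. DESeq2 and limma-voom also called 0 of the 7. Values in all siFLI1 libraries lay above all siControl libraries for 5 of the 8 annexins, namely ANXA1, ANXA2, ANXA3, ANXA4 and ANXA11, where 8.93% of tested genes did so, and below them for 0 of the 8, where 7.71% did; ANXA3 had too few counts to be tested. With counts scaled by library totals alone, in place of edgeR's TMM scaling, ANXA11 overlapped and 4 of the 8 annexins lay above (6.61% of tested genes) and 0 below (10.3%) (the TMM factor of siControl replicate 1 was 1.23). The median log2 fold change of the 7 tested annexins was 0.68, beside 0.01 over all tested genes. In bulk samples a change in the share of cells that express a gene and a change in RNA per cell cannot be told apart. The labels say that transfections were done in triplicate but do not describe them as independent cultures, so the p-values reflect only how these libraries vary and part of that may be technical.

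**Figure D1:**
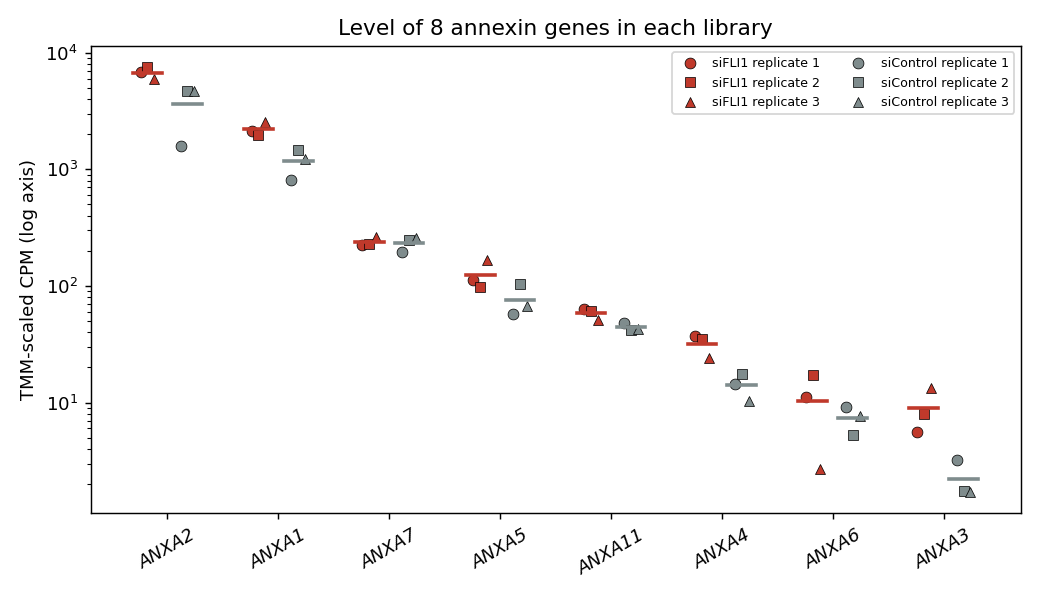
TMM-scaled CPM (log axis) of each annexin in each library, ordered from ANXA2 to ANXA3 by mean level, with siFLI1 libraries (red) left of siControl libraries (grey), marker shapes for replicates and a bar at each group mean. On this scale the groups do not overlap for ANXA1, ANXA2, ANXA3, ANXA4 and ANXA11 (ANXA11 overlaps with total-count scaling), and they overlap for ANXA5, ANXA6 and ANXA7.

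Assigned counts were 1893606, 1544522 and 417145 in siFLI1 replicates 1, 2 and 3, and 1531735, 1790051 and 1248395 in siControl replicates 1, 2 and 3. SiFLI1 replicate 3 had 10.1% of its header total assigned to genes, against 41.2 to 61.0% in the others, and it stood apart on the first principal component; siControl replicate 1 stood apart on the third. FLI1 had 19.0, 42.5 and 24.1 CPM (counts scaled to library size after TMM, edgeR's trimmed mean scaling) in siFLI1 libraries, against 63.0, 69.1 and 62.4 CPM in siControl libraries, and the difference did not pass (log2 fold change −1.16 ± 0.36, SE; edgeR adjusted p = 0.170). FLI1 was lower in every siFLI1 library. All 9 Ewing sarcoma marker genes had enough counts to test. Their summed level was 1293 to 2064 CPM in siFLI1 and 2889 to 4043 CPM in siControl libraries. Of these genes 2, NR0B1 and PRKCB, fell, and 5 were lower in every siFLI1 library. CCND1 had the highest mean (894 CPM with FLI1 siRNA, 2041 CPM with control siRNA), but its groups overlapped (edgeR adjusted p = 0.275). The groups also overlapped for CD99, NKX2-2 and NPY, and NPY averaged higher after FLI1 siRNA (log2 fold change 0.21). Fibroblast markers summed to 409.9 to 541 CPM in siFLI1 and 99.1 to 150.2 CPM in siControl libraries, with 1 of 6 (COL3A1) called higher and 3 of 6 tested. COL3A1 averaged 353 CPM in siFLI1 and 40.8 CPM in siControl, PDGFRB 51.3 against 15.3 and PDPN 80.9 against 56.5. PDGFRA averaged lower in siFLI1 (0.594 against 4.77 CPM), through siControl replicate 1, and DCN and LUM had few counts. Leukocyte markers summed to 68.2 to 83.0 CPM in siFLI1 and 46.9 to 59.8 CPM in siControl libraries, with CD3E at 0. The pan-leukocyte marker PTPRC had 16 counts (42.8 CPM) in siFLI1 replicate 3, 6 counts (5.13 CPM) in siControl replicate 3 and 0 in the other libraries. Markers of endothelium summed to at most 9.30 CPM in siFLI1 and 9.40 CPM in siControl libraries, and those of epithelium to at most 8.03 CPM in siFLI1 and 7.69 CPM in siControl libraries, with KRT5, KRT14 and KRT19 at 0. Their part in the annexin values was not tested.

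The bases upstream of 3 annexins are shown because ETS factors bind a GGAA core: ANXA1 had the most matches before the start of its row, ANXA2 was the most abundant, and ANXA7 showed nearly equal levels in both groups. Capitals mark GGAA or its reverse complement TTCC. Sequences are from RefSeq (GRCh38.p14), 5′ to 3′ on the gene's strand, and show only bases before the start of the row in the deposited table: chr9:73151615-73151730 (plus strand) for ANXA1, chr15:60397987-60398236 (minus strand) for ANXA2 and chr10:73414086-73414308 (minus strand) for ANXA7.
ANXA1: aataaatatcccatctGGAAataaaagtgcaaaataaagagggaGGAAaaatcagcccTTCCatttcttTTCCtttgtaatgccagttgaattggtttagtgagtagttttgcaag
ANXA2: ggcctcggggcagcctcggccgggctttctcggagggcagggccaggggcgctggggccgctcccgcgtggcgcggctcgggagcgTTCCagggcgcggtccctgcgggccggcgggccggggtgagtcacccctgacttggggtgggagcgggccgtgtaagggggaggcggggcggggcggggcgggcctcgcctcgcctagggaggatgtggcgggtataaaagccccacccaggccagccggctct
ANXA7: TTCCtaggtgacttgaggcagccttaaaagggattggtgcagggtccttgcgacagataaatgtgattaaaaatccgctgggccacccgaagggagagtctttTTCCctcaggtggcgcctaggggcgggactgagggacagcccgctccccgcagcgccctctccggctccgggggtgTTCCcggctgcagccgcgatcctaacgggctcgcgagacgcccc

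Promoters of 8 of 8 annexins were found in the RefSeq table. In the 250 bases before the RefSeq start, on both strands, GGAA occurred 5 times for ANXA1 and ANXA3, 4 times for ANXA4, 3 times for ANXA7 and ANXA11, 2 times for ANXA5 and ANXA6 and 1 time for ANXA2. Of 35116 promoter windows of that length, 92.7% held GGAA, with a median of 3 matches, so the match is common. These windows reach into the deposited rows to unequal lengths, so counts before the row starts cover unequal numbers of bases. There GGAA occurred 4 times in 116 bases for ANXA1, 1 time in 68 bases for ANXA3 and 0 times in 90 bases for ANXA4. The tandem GGAAGGAA, which contains the first motif and resembles the repeats that EWS-FLI1 binds, was in 0 of the 8 windows and in 3.06% of all windows. AGAACA, one arm of a glucocorticoid receptor element, was also in 0 of the 8 and in 12.4% of all windows. These letters describe the windows and show no binding.

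ANXA1 (chr9:73151731-73170394, plus strand, hg38) encodes the glucocorticoid-induced annexin whose N-terminal peptide acts on formyl peptide receptors. It had 2139, 1985 and 2562 CPM in siFLI1 libraries, against 814, 1472 and 1228 CPM in siControl libraries. Every siFLI1 library was above every siControl library, and siControl replicate 1 was the lowest. Means were 2229 ± 299 CPM in siFLI1 and 1171 ± 333 CPM in siControl (SD, n = 3 each), a log2 fold change of 0.93 ± 0.32 (SE; 95% interval 0.25 to 1.61), or 1.90-fold. The unadjusted edgeR p of 0.0110 became 0.249 after Benjamini-Hochberg adjustment. The lowest adjusted p for ANXA1 under any of 16 alternatives was 0.0545, from DESeq2, and without siFLI1 replicate 3 and siControl replicate 1 together the log2 fold change was 0.60. Its formyl peptide receptors were close to absent: FPR1 had 1 count in siFLI1 and 0 in siControl libraries, FPR2 had 0 in both, and FPR3 had 3 counts in siFLI1 and 1 in siControl libraries. PLA2G4A, the cytosolic phospholipase A2 that ANXA1 inhibits, averaged 49.6 ± 10.2 CPM in siFLI1 and 61.1 ± 16.1 CPM in siControl (SD, n = 3 each) and did not pass (log2 fold change −0.28 ± 0.32, edgeR adjusted p = 0.835).

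ANXA2 (chr15:60347151-60397986, minus strand, hg38) encodes the annexin that pairs with S100A10 in a tetramer at the plasma membrane. It had 6827, 7504 and 5893 CPM in siFLI1 libraries, against 1594, 4646 and 4679 CPM in siControl libraries. The groups did not overlap, but siControl replicate 1 was far below the other siControl libraries, which lay next to each other. Means were 6741 ± 809 CPM in siFLI1 and 3640 ± 1772 CPM in siControl (SD, n = 3 each), a log2 fold change of 0.89 ± 0.42 (SE; 95% interval −0.01 to 1.78; edgeR adjusted p = 0.470). Without siControl replicate 1 the log2 fold change was 0.50. Without that library and siFLI1 replicate 3 together the adjusted p for ANXA2 was 0.0804, the lowest of its alternatives.

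ANXA2 has processed pseudogenes whose rows hold counts of their own. How reads were split between ANXA2 and its copies is uncertain. ANXA2P2, the closest copy over the bases compared, held 0.222 to 0.854% of their joint counts on its row. Aligned to the ANXA2 transcript in GENCODE release 29, ANXA2P2 was 98.4% identical, ANXA2P1 93.6% and ANXA2P3 91.4%. The GENCODE copies held 926 to 1020 bases, against 1309 to 1349 in the deposited rows. The remaining bases of the rows, and any reads from the 3' end that lie on them, were not compared. Stretches of 50 bases found unchanged in ANXA2 made up 59.2% of those in ANXA2P2, 8.10% in ANXA2P1 and 0.730% in ANXA2P3. The same 90 bases of each, which end 44 bases before the stop codon of ANXA2, are shown to make the likeness visible, with capitals where a copy differs from ANXA2.
ANXA2: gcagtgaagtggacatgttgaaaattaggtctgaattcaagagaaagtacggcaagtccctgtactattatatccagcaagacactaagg
ANXA2P3: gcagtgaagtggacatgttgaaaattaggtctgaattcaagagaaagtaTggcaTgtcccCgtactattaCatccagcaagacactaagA
ANXA2P1: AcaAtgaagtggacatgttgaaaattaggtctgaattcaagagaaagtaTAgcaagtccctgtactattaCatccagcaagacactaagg
ANXA2P2: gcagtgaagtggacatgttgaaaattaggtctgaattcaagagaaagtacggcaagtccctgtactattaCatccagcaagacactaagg

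In this stretch ANXA2P3 and ANXA2P1 each differed from ANXA2 at 5 bases and ANXA2P2 at 1. The row of ANXA2P3 (chr10:64825528-64826877, plus strand, hg38) had 3477, 2257 and 325 counts in siFLI1 libraries, against 1007, 1651 and 1155 counts in siControl libraries. Of the counts of ANXA2 and its 3 copies together, ANXA2P3 took 21.6% (95% exact Clopper-Pearson interval 21.0 to 22.3), 16.3% (15.6 to 16.9) and 12.6% (11.4 to 14.0) in siFLI1 libraries. The shares were 24.9% (23.5 to 26.2), 16.8% (16.1 to 17.6) and 17.0% (16.1 to 17.9) in siControl libraries. The 2 sets of shares overlapped, and the highest share was in siControl replicate 1, the library with the lowest ANXA2 CPM. Scaled to CPM, ANXA2P3 had 1944, 1499 and 870.2 in siFLI1 libraries, against 542, 967 and 987 in siControl libraries, with siFLI1 replicate 3 inside the siControl range (log2 fold change 0.79 ± 0.35 SE, edgeR adjusted p = 0.431). Without siFLI1 replicate 3 and siControl replicate 1 it passed (adjusted p = 0.0441). ANXA2P1 (chr4:153307469-153308811, minus strand), which lies within TRIM2 on the other strand, had a log2 fold change of 0.85 ± 0.40 (edgeR adjusted p = 0.462), and ANXA2P2 (chr9:33624225-33625534, plus strand) of 1.32 ± 0.51 (adjusted p = 0.334), the only copy without overlap between groups. Summed over ANXA2 and its 3 copies the log2 fold change was 0.87 ± 0.41 (edgeR adjusted p = 0.480), next to 0.89 for ANXA2 alone. Intervals cover counting error only.

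**Figure D2:**
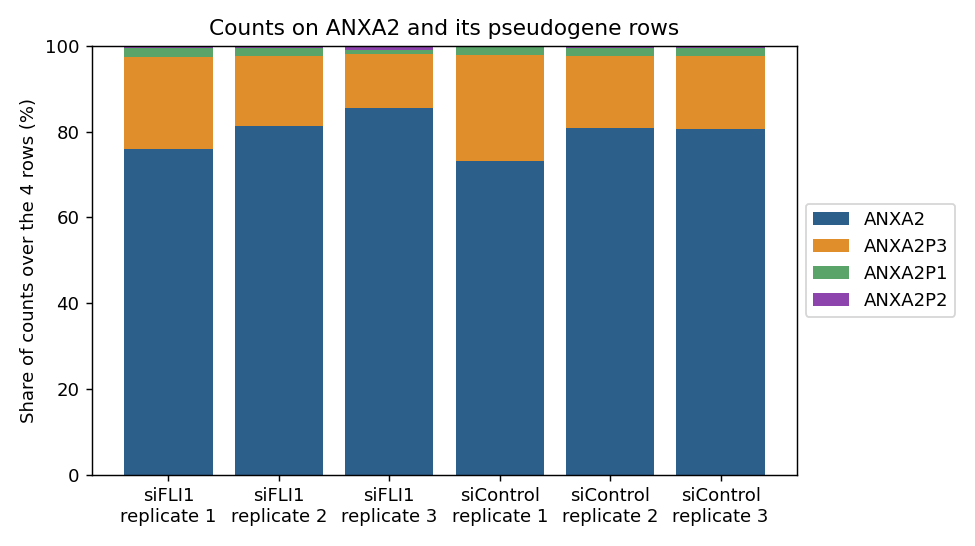
Stacked bars of the share (%) of the counts of ANXA2, ANXA2P3, ANXA2P1 and ANXA2P2 that each row took, by library, siFLI1 left of siControl. ANXA2P3 took between 12.6 and 24.9%, and the siFLI1 and siControl shares overlap.

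ANXA3 (chr4:78551588-78610451, plus strand, hg38), an annexin found at neutrophil granules, was the least abundant. It had 10, 12 and 5 counts in siFLI1 libraries, against 6, 3 and 2 counts in siControl libraries. In CPM these were 5.59, 7.97 and 13.4 in siFLI1 and 3.23, 1.76 and 1.71 in siControl libraries, where 3 counts correspond to 8.03 CPM in the shallow siFLI1 replicate 3. The groups did not overlap in CPM, but ANXA3 did not pass the filter on low counts. In a fit without that filter its log2 fold change was 1.82 ± 1.03 (SE; 95% interval −0.21 to 3.85; edgeR adjusted p = 0.564), so no difference was detectable at this depth. In that fit the median over the 8 annexins was 0.73, beside 0.12 over all 18819 genes with a count.

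ANXA4 (chr2:69741974-69826477, plus strand, hg38), an annexin of secretory epithelia that assembles in sheets on membranes, had 36.9, 35.2 and 24.1 CPM in siFLI1 libraries. Its siControl libraries had 14.5, 17.6 and 10.3 CPM. The groups did not overlap. ANXA4 averaged 32.1 ± 6.96 CPM in siFLI1 and 14.1 ± 3.67 CPM in siControl (SD, n = 3 each), the largest log2 fold change among the 7 tested annexins at 1.20 ± 0.41 (SE; 95% interval 0.31 to 2.09), or 2.30-fold. The edgeR p was 0.0115 and the adjusted p 0.251, and across the 16 alternatives the log2 fold change of ANXA4 stayed between 1.03 and 1.39 with a lowest adjusted p of 0.119.

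ANXA5 (chr4:121667997-121696992, minus strand, hg38), the annexin used as a probe for phosphatidylserine on dying cells, had 112, 97.0 and 166 CPM in siFLI1 libraries, against 57.1, 104 and 67.5 CPM in siControl libraries. The groups overlapped, since siFLI1 replicate 2 was below siControl replicate 2. Its log2 fold change was 0.68 ± 0.31 (SE; 95% interval 0.01 to 1.35; edgeR adjusted p = 0.450). Without siFLI1 replicate 3 and siControl replicate 1 it was 0.27.

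ANXA6 (chr5:151100706-151157882, minus strand, hg38), the annexin with a duplicated core, had 20, 26 and 1 counts in siFLI1 libraries, against 17, 9 and 9 counts in siControl libraries. In CPM these were 11.2, 17.3 and 2.68 in siFLI1, against 9.15, 5.27 and 7.69 in siControl, and the siFLI1 libraries held both the highest and the lowest value. The log2 fold change was 0.64 ± 0.61 (SE; edgeR adjusted p = 0.785), and it was 0.13 without siFLI1 replicate 2 and 1.13 without siFLI1 replicate 3 and siControl replicate 1.

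ANXA7 (chr10:73375101-73414085, minus strand, hg38), also called synexin and first described for aggregating chromaffin granules, had 224, 227 and 265 CPM in siFLI1 libraries, against 197, 245 and 256 CPM in siControl libraries. The groups overlapped over most of their range. It differed by a log2 fold change of 0.03 ± 0.24 (SE; interval at 95% −0.49 to 0.55; edgeR adjusted p = 0.978), and its sign turned under 8 of 16 alternatives, other scalings among them. SRI, the calcium-binding sorcin that binds ANXA7, also had overlapping levels: it averaged 145 ± 13.9 CPM in siFLI1 and 133 ± 10.2 CPM in siControl (SD, n = 3 each; log2 fold change 0.13 ± 0.24, edgeR adjusted p = 0.903).

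ANXA11 (chr10:80155124-80205572, minus strand, hg38), which links RNA granules to lysosomes in neurons, had 63.7, 61.1 and 50.9 CPM in siFLI1 libraries, against 47.9, 42.2 and 42.7 CPM in siControl libraries. The groups did not overlap on this scale, and siFLI1 replicate 3 lay closest to siControl. Scaled by library totals alone, siFLI1 replicate 3 had 47.6 CPM and siControl replicate 1 had 59.1 CPM of ANXA11, so the groups overlapped. Its log2 fold change was 0.42 ± 0.29 (SE; 95% interval −0.20 to 1.05; edgeR adjusted p = 0.675). PDCD6, the calcium sensor ALG-2 that binds ANXA11, averaged 66.3 ± 6.05 CPM in siFLI1 and 55.0 ± 12.6 CPM in siControl (SD, n = 3 each) and did not pass (log2 fold change 0.27 ± 0.29, edgeR adjusted p = 0.827).

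**Figure D3:**
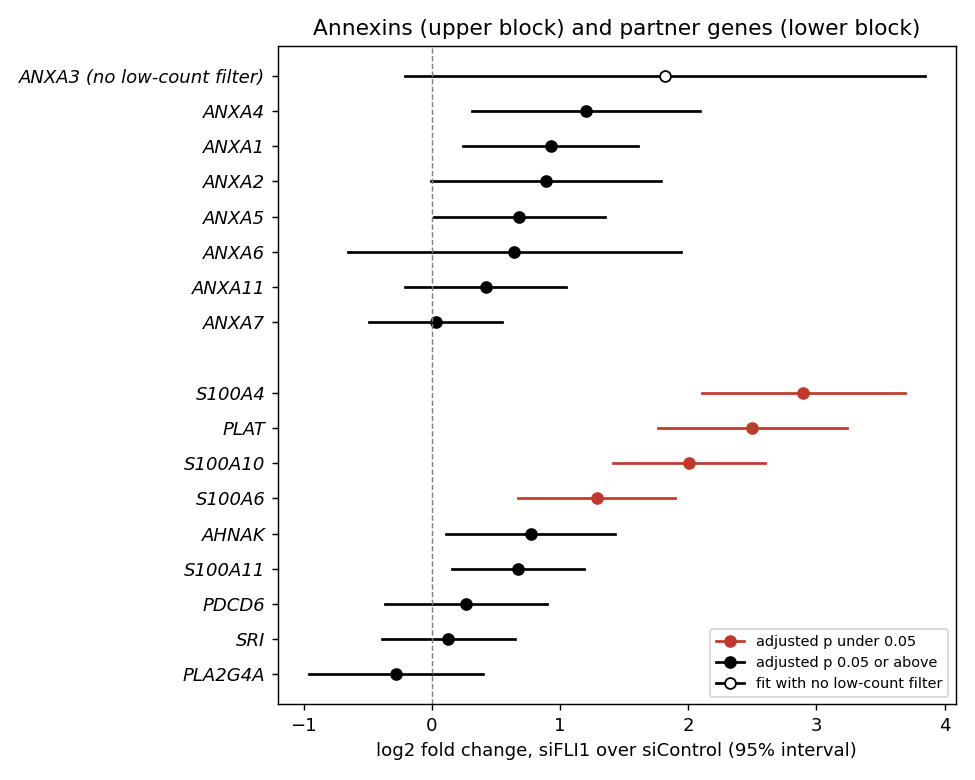
Log2 fold change (siFLI1 over siControl, points) with its 95% interval (lines) for the annexins (upper block; ANXA3, open point, from the fit without the low-count filter) and tested partner genes (lower block), in red where the adjusted p was under 0.05. Intervals of ANXA1, ANXA4 and ANXA5 lie above 0 without passing the adjusted threshold, and S100A4, PLAT, S100A10 and S100A6 are the partners in red.

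The annexins ranked ANXA2, ANXA1, ANXA7, ANXA5, ANXA11, ANXA4, ANXA6 and ANXA3 by mean CPM in siFLI1 and in siControl. Neighbours in that order had separate ranges, except ANXA6 and ANXA3 in siFLI1. Per kilobase of exon, levels ran from 4164 CPM per kb for ANXA2 to 3.50 for ANXA6 in siFLI1 and from 2248 for ANXA2 to 1.39 for ANXA3 in siControl. On that scale the order of ANXA3 and ANXA6 was turned round in siFLI1 with overlapping ranges. The ranges of ANXA7 and ANXA5 overlapped in siFLI1 as well. Reads came from the 3' end of RNA, so counts need not grow with exon length. Differences from the CPM order come from the division by length.

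Summed CPM of the 8 annexins was 9418, 9934 and 8978 in siFLI1 libraries, against 2736, 6534 and 6294 in siControl libraries. The sum is nearly all ANXA1 and ANXA2, which made up 94.2 to 95.5% of it in siFLI1 and 88.0 to 93.9% in siControl libraries. SiControl replicate 1 was the lowest of the 6 libraries for ANXA1 and ANXA2 under both scalings. It was also the lowest for ANXA5 and ANXA7 with TMM, but not with total-count scaling. The ratio of ANXA2 to ANXA1 counts was 3.19, 3.78 and 2.30 in siFLI1 libraries, against 1.96, 3.16 and 3.81 in siControl libraries, so the groups overlapped in it.

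**Figure D4:**
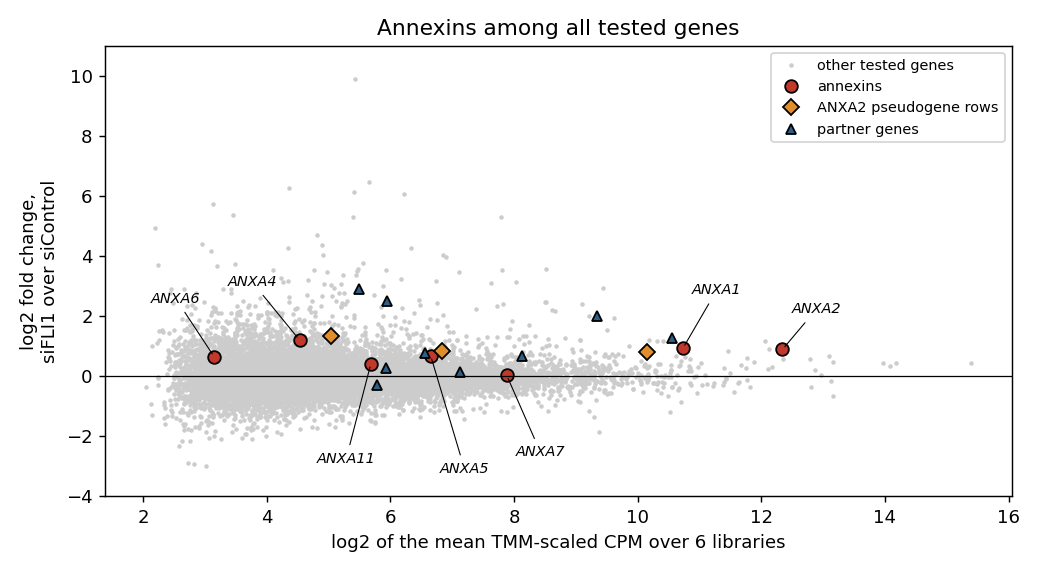
Log2 fold change (siFLI1 over siControl) against the log2 of mean TMM-scaled CPM over the 6 libraries, for the 7 tested annexins (red circles), ANXA2 pseudogene rows (orange diamonds), tested partner genes (blue triangles) and the other tested genes (grey). ANXA2 and ANXA1 lie at the high end of the levels, and the tested annexins all lie at or above 0, ANXA7 at 0.03.

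Of 13 genes for partners, receptors and ligands of annexins, 9 were tested, 4 rose and 0 fell, with a median log2 fold change of 0.77. Over all tested genes 1.34% rose and 0.117% fell, with a median of 0.01. The partner list was written with earlier results of these data known. S100A10, the light chain of the ANXA2 tetramer, averaged 1037 ± 205 CPM in siFLI1 and 258 ± 27.2 CPM in siControl (SD, n = 3 each), 4.01-fold higher (edgeR adjusted p = 0.000933). PLAT, the tissue plasminogen activator that binds the ANXA2 tetramer, averaged 105 ± 35.2 CPM in siFLI1 and 18.7 ± 4.01 CPM in siControl (log2 fold change 2.50 ± 0.34, edgeR adjusted p = 0.000921). S100A4, a calcium-binding protein that can bind ANXA2, averaged 79.4 ± 10.8 CPM in siFLI1 and 10.5 ± 3.68 CPM in siControl (log2 fold change 2.90 ± 0.37, edgeR adjusted p = 0.000492). All 3 were higher in every siFLI1 library.

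S100A6, which binds ANXA11 and ANXA2, averaged 2144 ± 226 CPM in siFLI1 and 879 ± 63.0 CPM in siControl (SD, n = 3 each; log2 fold change 1.29 ± 0.29, edgeR adjusted p = 0.0375). Its call was lost on leaving out any single library other than siControl replicate 1, with an adjusted p of up to 0.232. S100A11, the S100 partner of ANXA1, had a log2 fold change of 0.67 ± 0.24 (edgeR adjusted p = 0.285), and AHNAK, a large scaffold bound by the ANXA2 tetramer, of 0.77 ± 0.31 (adjusted p = 0.369). Neither passed. S100A11 was higher in every siFLI1 library under both scalings, whereas AHNAK was so with TMM only, as siControl replicate 1 had the highest AHNAK level (125 CPM) with total-count scaling. ANXA2R, annotated as an ANXA2 receptor, had 17 counts in siFLI1 and 17 in siControl libraries.

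The ratio of S100A10 to ANXA2 counts, which compares libraries and not molecules, was 0.128, 0.129 and 0.215 in siFLI1 libraries. In siControl libraries it was 0.171, 0.0590 and 0.0484. The groups overlapped through siControl replicate 1, the library with little ANXA2.

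Genes of related processes were counted in the same way, where 1.34% of all tested genes rose and 0.117% fell, with a median of 0.01. Of 15 tested genes for membrane repair, 0 rose and 0 fell, with a median log2 fold change of 0.01, but other fits called up to 2 higher (EHD2 and MYOF) and 1 lower (CAV1). Among them MYOF, a ferlin involved in membrane fusion, averaged 114 ± 30.9 CPM in siFLI1 and 44.1 ± 13.2 CPM in siControl (log2 fold change 1.34 ± 0.33, edgeR adjusted p = 0.0624). MYOF passed without the low-count filter (adjusted p = 0.0106) and with limma-voom and library weights (0.0243). EHD2, a caveolar ATPase, had a log2 fold change of 2.13 ± 0.56 (edgeR adjusted p = 0.0878). EHD2 passed without the filter (adjusted p = 0.0130), with limma-voom (0.0325) and with library weights (0.0317), and its log2 fold change was 2.85 without siControl replicate 3. CAV1, the main caveolar coat protein, averaged 1184 ± 23.8 CPM in siFLI1 and 2129 ± 19.1 CPM in siControl (SD, n = 3 each), with a log2 fold change of −0.85 ± 0.28 (edgeR adjusted p = 0.226), and EHD4, an endosomal relative of EHD2, of −0.83 ± 0.28 (adjusted p = 0.249). CAV1 passed with DESeq2 (adjusted p = 0.000237) and, when siFLI1 replicate 3 and siControl replicate 1 were both left out, with edgeR (adjusted p = 0.0190).

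Of 9 tested genes for phosphatidylserine exposure, the lipid that annexins bind, 0 rose and 0 fell, with a median log2 fold change of −0.05. Over all tested genes 1.34% rose and 0.117% fell, with a median of 0.01. The smallest adjusted p was that of ATP11B, a lipid flippase, at −1.30 ± 0.45 (edgeR adjusted p = 0.251). The flippase ATP8B1 had a log2 fold change of −0.45 ± 0.29 (adjusted p = 0.641). The scramblases ANO6 and XKR8 had log2 fold changes of 0.39 ± 0.29 (adjusted p = 0.702) and −0.34 ± 0.51 (adjusted p = 0.876).

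Of 9 tested genes with C2 domains, the other main family of calcium-dependent phospholipid binders, 0 rose and 1 fell, with a median log2 fold change of 0.23. The shares over all tested genes were 1.34% and 0.117%, with a median of 0.01. The gene that fell was PRKCB, a protein kinase C that is also on the Ewing sarcoma marker list, which averaged 81.5 ± 5.64 CPM in siFLI1 and 184 ± 32.8 CPM in siControl (SD, n = 3 each; log2 fold change −1.17 ± 0.26, edgeR adjusted p = 0.0369). This call was lost on leaving out any single library (adjusted p between 0.0633 and 0.190). SYT1, a synaptic vesicle calcium sensor, had a log2 fold change of −1.18 ± 0.35 (edgeR adjusted p = 0.158), ESYT2, a membrane tether, of 0.62 ± 0.30 (adjusted p = 0.495), and CPNE3, a copine, of 0.60 ± 0.33 (adjusted p = 0.574).

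Of the other annexin genes, ANXA8, ANXA8L1, ANXA9 and ANXA13 had 0 counts in all 6 libraries. ANXA10 had 2 counts in siFLI1 and 0 in siControl libraries.

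By root mean square distance of mean-centred log2 CPM over the 6 libraries, the genes nearest to ANXA1 were WASHC2A (0.0825), ATP9A (0.106) and CC2D2A (0.110). Those nearest to ANXA4 were PARVA (0.0808), CTSB (0.148) and RAB3B (0.175). Some of these genes had few counts, such as CC2D2A with 7 to 25 and PARVA with 14 to 96 per library. Counting error may therefore affect the ranking. WASHC2A averaged 46.9 ± 8.12 CPM in siFLI1 and 26.0 ± 7.83 CPM in siControl, and PARVA 49.7 ± 10.7 CPM in siFLI1 and 21.5 ± 5.004 CPM in siControl (SD, n = 3 each). CTSB averaged 417 ± 85.1 CPM in siFLI1 and 188 ± 20.4 CPM in siControl. Alone among these neighbours it passed (log2 fold change 1.15 ± 0.26, edgeR adjusted p = 0.0387), unlike ANXA4 itself.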

How the data were processed

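The authors deposited raw exon counts of 27234 rows (a RefSeq transcript for each gene) for 6 libraries in 1 table. They were 3' MARS-seq libraries with molecular barcodes, per the labels' protocols. The submitters' processing notes name bcl2fastq, HISAT 0.1.5, HOMER and hg38. The use of barcodes and of strand in counting is not given in the sources; PCR copies may therefore be among the counts. Coordinates are those of the table, counted from 1.

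Genes were kept by filterByExpr (minimum count 10, minimum total 15), which left 9420, and libraries were scaled by TMM, edgeR's trimmed mean method; levels are CPM on that scale. The test was edgeR 4.0.16 in R 4.3.3 (robust glmQLFit, then glmQLFTest, two-sided) with group as the only term, Benjamini-Hochberg adjustment and a threshold of 0.05. Standard errors and 95% intervals come from the quasi-likelihood F statistic. The fit was tested on simulated counts with a common dispersion for all genes and no library set apart, unlike these data. No replicate pair of a group was within sampling noise: chi-square divided by its degrees of freedom was 6.78 or more. No other row overlapped an annexin row. Alternatives were other scalings, filters, DESeq2 1.42.0, limma 3.58.1 voom, a replicate block and left-out libraries. The annexins, gene lists and tests were chosen with earlier results of these data known. Named genes were the annexins, other annexin rows with a count, FLI1, the 4 genes with the smallest adjusted p of each list, and 3 nearest genes for each of 2 annexins; other partner genes, marker genes and annexin rows at 0 were named after their values were seen.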

Additional observations from a re-analysis of the deposited data

How the results depend on the processing

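None of the 7 tested annexins passed under any of 16 alternatives, and the direction held under all of them except for ANXA7. The log2 fold change of ANXA7 was −0.0783 with total counts, −0.00367 with upper quartile scaling, −0.025 without the low-count filter, −0.00676 with DESeq2 and −0.0367 with voom and library weights. It was −0.16 without siFLI1 replicate 3 and siControl replicate 1, and between −0.12 and 0.10 on leaving out 1 library. Total counts moved the median of all genes by −0.12. Genes called higher numbered 306 without the filter and 64 to 121 on leaving out 1 library and 161 without both siFLI1 replicate 3 and siControl replicate 1, against 126. Genes called lower numbered 17 with total counts, 62 without the filter, 26 with DESeq2, 31 with voom and library weights, 32 without both doubted libraries and 1 to 7 on leaving out 1 library, against 11. Membrane repair genes called higher numbered 2 without the filter and with voom and library weights (EHD2 and MYOF) and 1 with voom (EHD2), and 1 (CAV1) fell with DESeq2, against 0 and 0. Without both libraries 1 membrane repair gene (CAV1) fell, 1 pseudogene (ANXA2P3) rose and 0 C2 domain genes fell; the last number was 0 to 0 on leaving out 1 library. The cause of these shifts was not tested. Correlations of deviations were −0.03, −0.01 and −0.05 between same-numbered libraries, and −0.09 to 0.12 between the other pairs. With 3 libraries per group these values cannot settle whether the numbers pair libraries. With the replicate block 99 genes were higher, 2 were lower, 0 C2 domain genes fell and the edgeR adjusted p of S100A6 was 0.133. ANXA3 and ANXA6 had the fewest counts, with 5 and 1 in siFLI1 replicate 3. Scalings, filters and tools for the gene lists, and the overlap with total counts, were added after seeing the data.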
